A study of Mus musculus with 6 samples.

Results

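The expression of 10 genes of fatty acid oxidation was examined in macrophages that lack or retain the mitochondrial fission gene Drp1. The genes were Acsl1, Cpt1a, Cpt2, Acadm, Acadl, Acadvl, Hadha, Hadhb, Acaa2 and Etfdh. With earlier results of these data known, they were chosen by name for their place in the pathway. They are 10 of the 36137 genes with a transcript in the deposited tables and 10 of the 18506 genes tested, so each of the 10 passed the minimum of 10 estimated counts over all libraries. Bone marrow–derived macrophages (BMDMs) were grown for 7 days and kept for 8 hours in hypoxia with serum starvation (HSS), at 2.1% oxygen per the labels, a culture model of ischemia. Libraries of poly(A) RNA came from 3 WT and 3 Drp1 KO cultures. The study's methods give the WT genotype as LysM-Cre+/- Drp1+/+ and the Drp1 KO genotype as LysM-Cre+/- with Drp1fl/fl, in young adult mice with the Cre line on a C57BL/6J background. LysM-Cre acts in myeloid cells, and both groups carry it. There was no library without HSS, so each value is a comparison of genotypes within HSS. Marrow was pooled within a genotype. The labels call the libraries biological replicates and the study counts as many mice as libraries in each group, but the sources do not say how the pools relate to the libraries. The p-values therefore measure the spread between these libraries, which may be partly technical.

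In fatty acid oxidation, a long-chain acyl-CoA synthetase such as Acsl1 first activates the fatty acid. Cpt1a on the outer mitochondrial membrane makes the carnitine ester that enters the matrix, and Cpt2 on the inner membrane turns it back into acyl-CoA. Acyl-CoA dehydrogenases of different chain-length preference (Acadvl, Acadl and Acadm) begin each round of shortening, the trifunctional protein (Hadha and Hadhb) and the thiolase Acaa2 complete it, and Etfdh passes the electrons of the dehydrogenases to ubiquinone. Many of these genes are known targets of the PPAR and ERR nuclear receptors with the coactivator PGC-1, and oxidative metabolism is a known feature of alternatively activated macrophages. Drp1, encoded by Dnm1l, is a GTPase that divides mitochondria.

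Library totals were 24269850 to 28650715 estimated counts in WT and 23389488 to 32231206 in Drp1 KO, so that counting error was small for every member, the lowest count being 503. Dnm1l, summed over all its exons, had 72.7, 69.9 and 75.1 CPM (counts scaled to library size) in WT and 58.7, 60.7 and 66.3 in Drp1 KO. The groups did not overlap, but the log2 fold change was only -0.23 ± 0.0921 (SE) with an adjusted p of 0.248, and a sum that includes exons outside a floxed segment does not check its deletion. Libraries 1 of both groups stood apart from the others, with mitochondrially encoded RNA at 0.297% and 0.342% of counts against 0.494% to 0.690%. Summed macrophage markers were at 13412 to 14811 CPM in WT and 11993 to 14417 in Drp1 KO. Of these 8 genes Fcgr1 passed as higher without a covariate and in all 15 other settings, and Csf1r and Mertk passed as lower. Csf1r did not pass with length-scaled TPM or on leaving out 1 library other than Drp1 KO library 1 (adjusted p up to 0.209), nor did Mertk on leaving out WT or Drp1 KO library 2 or 3 (up to 0.118). Summed neutrophil markers (10 genes) were at 90.4 to 98.5 CPM in WT and 119 to 222 in Drp1 KO. No neutrophil marker of the 8 tested passed with edgeR without a covariate, S100a8 and Ngp passed as higher with DESeq2 (adjusted p of 0.0109 and 0.0112), 5 passed as higher with libraries paired by number (S100a8, S100a9, Ngp, Ltf and Mmp8, named after their values were seen), and Retnlg was at or under 3 counts in every library. Dendritic cell, fibroblast, lymphocyte and adipocyte markers each summed to less than 6 CPM in every library, and Cd209a, Adipoq and Lep were at 0. What part these differences have in the values of the oxidation enzymes was not tested. In bulk RNA, fewer cells of a type and less RNA per cell cannot be told apart.

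All 10 fold changes were below 0 in Drp1 KO (9 of 10 with length-scaled TPM, where Cpt2 was at 0.15), by at most 1.30-fold (Acadm), and none of the 10 passed an adjusted p of 0.05. The median log2 fold change of the members was -0.24, against 0.0046 over all genes tested and 0.012 over the 7954 genes whose mean reached 10 CPM. A log2 fold change below 0 was found for 49.4% of all genes tested and 47.7% of those reaching 10 CPM. At an adjusted p under 0.05 (edgeR, quasi-likelihood test, Benjamini-Hochberg adjustment over all 18506 genes), 3.36% of genes passed in either direction 1.06% being lower and 2.29% higher. At an unadjusted p under 0.05, 5 of the 10 members were lower and 0 higher, where 7.39% of all genes and 11.8% of genes reaching 10 CPM were lower and 9.03% of all genes were higher. These 5 were Acsl1, Cpt1a, Acadm, Acadvl and Hadha. The other 5 had fold changes from -0.24 (Acadl) to -0.02 (Hadhb) on the log2 scale. With DESeq2, 2 members passed (Acadm and Hadha), where 6.24% of all genes did, and with limma-voom 0, where 3.37% did.

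Deviations from the group mean correlated positively in libraries of the same number. WT library 2, however, correlated more with Drp1 KO library 3 (0.339) than with Drp1 KO library 2 (0.218). The labels do not say that a number marks a shared batch. As an alternative, a second fit took the numbers as pairs. In it Acadm, Acadvl and Hadha fell at an adjusted p under 0.05, which makes 3 of 10 members, with 12.0% of all genes passing in either direction, 5.22% lower and 6.73% higher. In 7 of the 10 members each of the 3 Drp1 KO libraries was below the WT library of its number, which held for 22.1% of all genes. The exceptions were Cpt2 and Etfdh, lower in 2 of 3 pairs, and Hadhb, lower in 1. Without libraries 1 of both groups, a comparison added after the values were seen, Acsl1, Acadm and Hadha passed, where 10.5% of all genes did. At the study's fold threshold (0.32 on the log2 scale) with an unadjusted p under 0.05, 2 of 10 members passed (Acadm and Acadvl), where 12.7% of all genes passed in either direction and 5.48% were lower. Hadha lay just outside this fold, at 1.249, and passed both thresholds with DESeq2. That count was 5 when Drp1 KO library 1 was left out (Acsl1, Acadl and Hadha joining), where 15.2% of all genes passed in either direction. It was 1 (Acadm) when either of the other Drp1 KO libraries was left out, where 10.7% passed for library 2 and 12.0% for library 3. With length-scaled TPM it was 4, with Acsl1 and Hadha joining, where 13.6% of all genes passed.

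**Figure D1:**
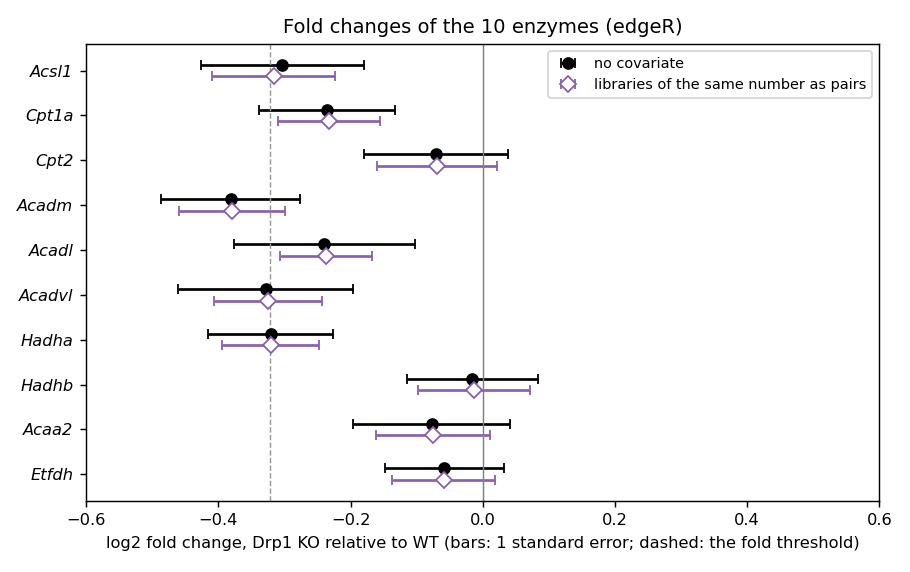
Log2 fold changes (x axis) of the 10 enzymes in Drp1 KO relative to WT, with bars of 1 SE, from edgeR without a covariate (filled circles) and with libraries paired by number (open diamonds); the dashed line marks the fold threshold at -0.32. All 10 estimates lie below 0, from -0.38 for Acadm to -0.02 for Hadhb, and pairing shortens the bars with little movement of the estimates.

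Per transcript length, Acadl was the most abundant of the 10 in both groups. Its level was 284 ± 31.2 TPM (counts scaled to transcript length and library size; mean ± SD, n = 3) in WT and 232 ± 21.6 in Drp1 KO. Hadha followed with 102 ± 11.1 TPM in WT and 75.8 ± 3.11 in Drp1 KO, separate from its neighbours in the order in both groups. In WT the next were Cpt1a (63.9 ± 9.65 TPM) and Acadm (59.5 ± 13.7 TPM), whose ranges overlapped. Acadm in turn overlapped with Hadhb (39.1 ± 4.88 TPM). Acsl1 at 34.6 ± 0.197 TPM lay in a narrow range apart from its neighbours, and Etfdh (31.6 TPM), Acaa2 (27.0 TPM), Cpt2 (26.1 TPM) and Acadvl (22.9 TPM) each overlapped with the next. In Drp1 KO, Acsl1 stood 8th in place of 6th, at 25.4 ± 3.63 TPM, and its range overlapped with those of Cpt2 and Acaa2. Acadvl was again the lowest, at 16.8 ± 1.14 TPM, and was then separate from Acaa2. The 10 genes together summed to 694, 661 and 717 TPM in WT and 584, 539 and 545 TPM in Drp1 KO, and Acadl alone held 36.5% to 46.1% of the sum. On the TPM scale, which has no TMM scaling, the Drp1 KO libraries lay below all WT libraries in 8 of the 10 genes, the exceptions being Cpt2 and Acaa2. This held for 14.5% of all genes tested, whose median ratio of mean TPM was -0.08 on the log2 scale.

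**Figure D2:**
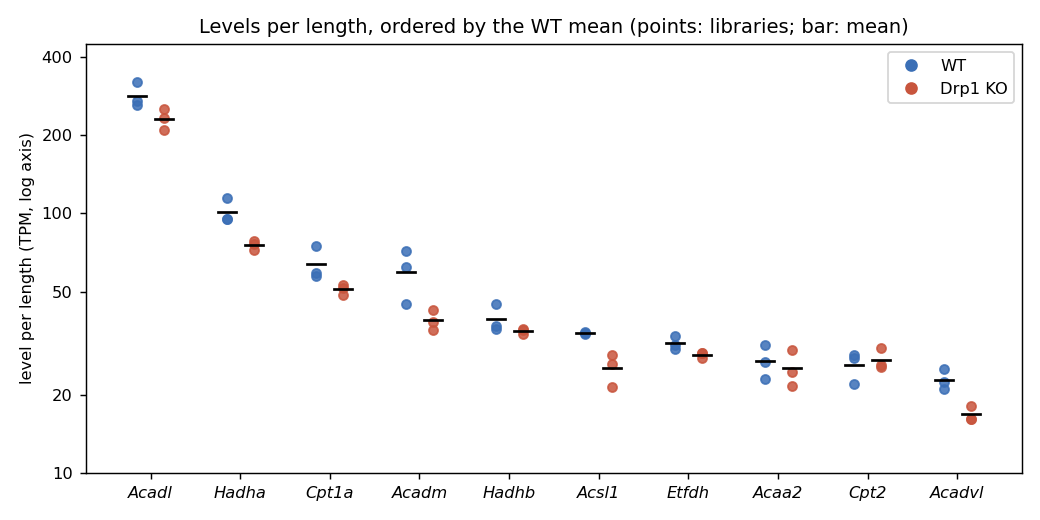
Levels per transcript length (TPM, log axis) of the 10 enzymes in order of their WT mean, with 1 point per library and a bar at the mean of 3 libraries. Acadl at 284 TPM in WT is far above the rest, and the Drp1 KO points lie below all WT points in each gene but Cpt2 and Acaa2.

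Acsl1, which makes long-chain acyl-CoA for oxidation and lipid synthesis, is on chr8:46924063-46990145 (GRCm39, plus strand). Its level was 64.3, 63.1 and 63.1 CPM in WT and 61.0, 43.5 and 50.1 CPM in Drp1 KO. The WT libraries were nearly alike, and Drp1 KO library 1 lay close to them while libraries 2 and 3 were clearly lower. The groups did not overlap, with a log2 fold change of -0.30 ± 0.123 (SE) and an adjusted p of 0.252 (0.0527 with pairing). When Drp1 KO library 1 was left out, Acsl1 fell by 0.45 on the log2 scale with an adjusted p of 0.044, and 4.96% of all genes then passed. Leaving out Drp1 KO library 2 in its place gave a log2 fold change of -0.19 and an adjusted p of 0.583.

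Acsl4 and Acsl5, of the same family, had fold changes of the opposite sign. Acsl4, which prefers arachidonate, was at 177, 156 and 148 CPM in WT and 219, 196 and 185 CPM in Drp1 KO, a log2 fold change of 0.32 ± 0.106 (SE) with an adjusted p of 0.152. Acsl5 was at 105, 104 and 90.3 CPM in WT and 129, 117 and 118 CPM in Drp1 KO, a log2 fold change of 0.28 ± 0.0975 (SE) with an adjusted p of 0.169. Both rose in the paired fit, with adjusted p of 0.0127 and 0.0313. As a share of the TPM of Acsl1, Acsl3, Acsl4, Acsl5 and Acsl6, Acsl1 made up 19.8%, 18.6% and 20.6% in WT and 13.4%, 11.5% and 13.9% in Drp1 KO. The groups were separate, by -6.71 percentage points, and the two-sided exact permutation p was 0.1, the smallest that 3 against 3 libraries allow (0.15 adjusted over the 3 ratios tested). Acsl3 held 24.0% ± 4.81 (SD, n = 3) of the total in WT and 23.5% ± 1.47 in Drp1 KO, and Acsl6 was at or under 3 counts in every library.

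Cpt1a, the malonyl-CoA–sensitive gate of mitochondrial entry, is on chr19:3371853-3437996 (plus strand). It was at 187, 169 and 206 CPM in WT and 171, 150 and 157 CPM in Drp1 KO. Drp1 KO library 1 was above WT library 2, so the groups overlapped, although each Drp1 KO library was below the WT library of its number. Its log2 fold change was -0.24 ± 0.103 (SE) with an adjusted p of 0.290, and of 0.0803 with pairing. Cpt1a was nearly the only Cpt1 gene in these cells, at 98.1% to 99.3% of the TPM of Cpt1a, Cpt1b and Cpt1c over all 6 libraries. Its share was 98.7% ± 0.504 (SD, n = 3) in WT and 98.8% ± 0.406 in Drp1 KO (two-sided exact permutation p = 0.8). On summed estimated counts per kilobase the difference was -0.470 percentage points, with a p of 0.1 in the same test, the smallest possible here.

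Cpt2, on chr4:107751473-107780812 (minus strand), converts the carnitine ester back to acyl-CoA in the matrix. It was at 21.7, 25.3 and 25.8 CPM in WT and 23.0, 23.4 and 23.0 CPM in Drp1 KO, where all libraries fell inside the WT range. The log2 fold change was -0.07 ± 0.109 (SE) with an adjusted p of 0.838, and turned to 0.15 with length-scaled TPM. The shares of its transcripts are given as a description, with no test. The main transcript Cpt2-201, of 5 exons, took 69.1%, 60.4% and 71.5% of the gene's estimated counts in WT and 51.5%, 60.4% and 48.4% in Drp1 KO. The shorter 4-exon transcript Cpt2-203 took 22.4%, 31.5% and 20.7% in WT and 37.0%, 29.9% and 38.1% in Drp1 KO. Cpt2-206, a transcript with a retained intron, took 8.44%, 8.13% and 7.79% in WT and 10.9%, 9.61% and 13.5% in Drp1 KO. The Cpt2-201 shares just did not overlap, libraries 2 of both groups being almost equal, those of Cpt2-203 overlapped and those of Cpt2-206 did not. Of the 10 genes, 8 had at least 2 transcripts with 1% or more of the counts, and the shares did not overlap between groups for 6 of these 24 transcripts, in Cpt2, Hadha and Hadhb. Among all such transcripts of the genes tested this held for 16.7%, and for 21.4% where the gene averaged 10 CPM or more, close to the members' share. kallisto divides reads between overlapping transcripts by estimation, and the error of that division was not measured here.

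Acadm, the medium-chain acyl-CoA dehydrogenase, is on chr3:153627989-153650317 (minus strand). It was at 37.8, 40.4 and 45.4 CPM in WT and 30.5, 31.2 and 33.2 CPM in Drp1 KO. Every Drp1 KO library was below every WT library, and the Drp1 KO libraries were close to each other. The log2 fold change was -0.38 ± 0.105 (SE), a 1.30-fold lower level, with an adjusted p of 0.0864. It passed with pairing (adjusted p = 0.0117), with DESeq2 (0.0272) and without libraries 1 of both groups (0.0312). Leaving out single libraries gave log2 fold changes of -0.44 to -0.32.

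Acadl, the long-chain acyl-CoA dehydrogenase, is on chr1:66868267-66902633 (minus strand). It was at 376, 306 and 278 CPM in WT and 308, 271 and 235 CPM in Drp1 KO. Library 1 was the highest of each group and library 3 the lowest, so the groups overlapped while all 3 pairs had the lower value in Drp1 KO. The log2 fold change was -0.24 ± 0.136 (SE) with an adjusted p of 0.440. With pairing the SE was 0.0696 and the adjusted p 0.0516. Leaving out WT library 1 brought the log2 fold change to -0.11 and leaving out Drp1 KO library 3 to -0.14, with adjusted p of 0.706 and 0.739.

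Acadvl, the very-long-chain acyl-CoA dehydrogenase of the inner membrane, is on chr11:69900853-69906270 (minus strand). It was at 39.0, 30.6 and 31.2 CPM in WT and 30.5, 25.4 and 24.5 CPM in Drp1 KO. The groups just did not overlap, since Drp1 KO library 1 and WT library 2 were almost equal, and in both groups library 1 was the highest. On the log2 scale the fold change was -0.33 ± 0.132 (SE) with an adjusted p of 0.248, and it passed with pairing (adjusted p = 0.0256). Leaving out WT library 1 brought it to -0.21.

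The upstream sequences of the 3 dehydrogenase genes are shown because these genes do the same chemical step and their fold changes were all negative. Of the 3, only Acadl had groups that overlapped. The 250 bases before the annotated start of the genes' main transcripts differ in base composition and in the motifs they hold. They were read from the GRCm39 genome in the direction of the gene, with AGGTCA (the nuclear receptor half-site), GGGCGG (the GC box) and CCAAT in capitals on either strand. The first is chr3:153650276-153650525, the second chr1:66902633-66902882 and the third chr11:69906270-69906519, all on the minus strand.
Acadm: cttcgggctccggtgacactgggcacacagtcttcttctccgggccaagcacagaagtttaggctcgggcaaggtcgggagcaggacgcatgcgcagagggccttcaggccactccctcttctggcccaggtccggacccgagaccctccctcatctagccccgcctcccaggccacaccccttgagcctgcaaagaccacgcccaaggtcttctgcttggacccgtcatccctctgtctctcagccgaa
Acadl: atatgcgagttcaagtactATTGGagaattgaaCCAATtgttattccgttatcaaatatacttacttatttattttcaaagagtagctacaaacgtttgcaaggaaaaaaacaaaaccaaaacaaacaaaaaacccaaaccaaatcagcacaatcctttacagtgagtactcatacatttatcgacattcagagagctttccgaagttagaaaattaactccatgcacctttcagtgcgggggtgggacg
Acadvl: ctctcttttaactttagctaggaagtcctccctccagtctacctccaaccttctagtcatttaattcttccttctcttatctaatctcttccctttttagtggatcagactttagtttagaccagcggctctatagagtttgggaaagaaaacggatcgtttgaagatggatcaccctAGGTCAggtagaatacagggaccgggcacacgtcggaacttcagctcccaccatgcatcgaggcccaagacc

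The Acadm sequence was 64% G and C and held none of the 3 motifs, the Acadl sequence was 35.6% G and C with CCAAT in 2 places, and the Acadvl sequence was 46.4% G and C with AGGTCA in 1 place. None of the 3 had the GC box, which stood in the 250 upstream bases of the other 7 members and of 36.3% of 21757 protein-coding genes. AGGTCA was found upstream of 3 members (Acadvl, Cpt1a and Hadha) and of 13.1% of genes, and CCAAT upstream of 3 members (Acaa2, Acadl and Etfdh) and of 36.5%. The direct repeat of the half-site with 1 spacer base was found for 0 members and 0.0368% of genes, the longer TCAAGGTCA for 0 members and 0.432%, and ACGTG for 2 members (Acaa2 and Acadvl) and 17.0%. Both strands were searched, and the half-site is contained in both longer motifs. The motifs were chosen after the values were seen, and a match is a description of the letters alone.

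Hadha and Hadhb encode the alpha and beta subunits of the trifunctional protein, which form 1 complex, and lie head to head on chromosome 5. Hadha is on chr5:30323302-30360187 (minus strand) and Hadhb on chr5:30359204-30389997 (plus strand). The stretch between the starts of Hadha-205 and Hadhb-201 is shown because these transcripts of the subunit genes begin at its ends, although other annotated transcripts of both genes begin elsewhere. It is chr5:30360182-30360245, read on the plus strand (from Hadha toward Hadhb), with the GC box in capitals.
Hadha–Hadhb: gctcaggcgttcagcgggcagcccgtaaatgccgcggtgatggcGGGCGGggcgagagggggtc
The stretch is 64 bases long and 73.4% G and C. Starts in a divergent pair this close are 1.58% of the 21757 protein-coding starts.

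Hadha was at 184, 173 and 197 CPM in WT and 157, 140 and 146 CPM in Drp1 KO. The groups did not overlap, with a log2 fold change of -0.32 ± 0.0946 (SE) and an adjusted p of 0.108. It passed with pairing (adjusted p = 0.0174), with DESeq2 (0.0371) and without libraries 1 of both groups (0.0308). Hadhb was at 44.3, 42.0 and 49.9 CPM in WT and 46.0, 45.1 and 43.7 CPM in Drp1 KO. Its groups overlapped fully, with a log2 fold change of -0.02 ± 0.0994 (SE) and an adjusted p of 0.976, and the value was 0.044 when WT library 3 was left out and 0.0081 when Drp1 KO library 3 was. The pseudogene Hadhb-ps, which could share reads with it, had at most 2 counts in a library.

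The TPM ratio of Hadha to Hadhb was 2.59, 2.66 and 2.56 in WT and 2.22, 2.03 and 2.20 in Drp1 KO. All Drp1 KO ratios were below all WT ratios, with means of 2.61 ± 0.0503 (SD, n = 3) and 2.15 ± 0.106. The difference was -0.28 on the log2 scale, with a two-sided exact permutation p of 0.1, the smallest this design can give (0.15 adjusted over 3 ratios). The transcript shares of both genes, which enter the TPM through transcript length, are also a description with no test. Hadha-201, which begins inside Hadha-205 and has no coding sequence defined in the annotation, took 80.2%, 82.5% and 79.9% of the Hadha counts in WT and 84.2%, 84.5% and 83.9% in Drp1 KO. The coding transcript Hadha-205 took at most 18.4% in WT and at most 14.9% in Drp1 KO. Of the Hadhb counts, the coding transcript Hadhb-201 took 58.2%, 56.0% and 62.2% in WT and 54.8%, 54.2% and 54.2% in Drp1 KO, and Hadhb-203 took 34.9%, 36.6% and 30.9% against 41.5%, 38.6% and 38.1%. Hadhb-206 took 4.79%, 6.18% and 5.42% in WT and 3.21%, 5.53% and 5.42% in Drp1 KO, which overlapped. The shares of the other 4 did not overlap between groups, that of Hadha-205 only just, beside the 16.7% of all transcripts for which this held, and their part in the TPM ratio was not tested.

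**Figure D3:**
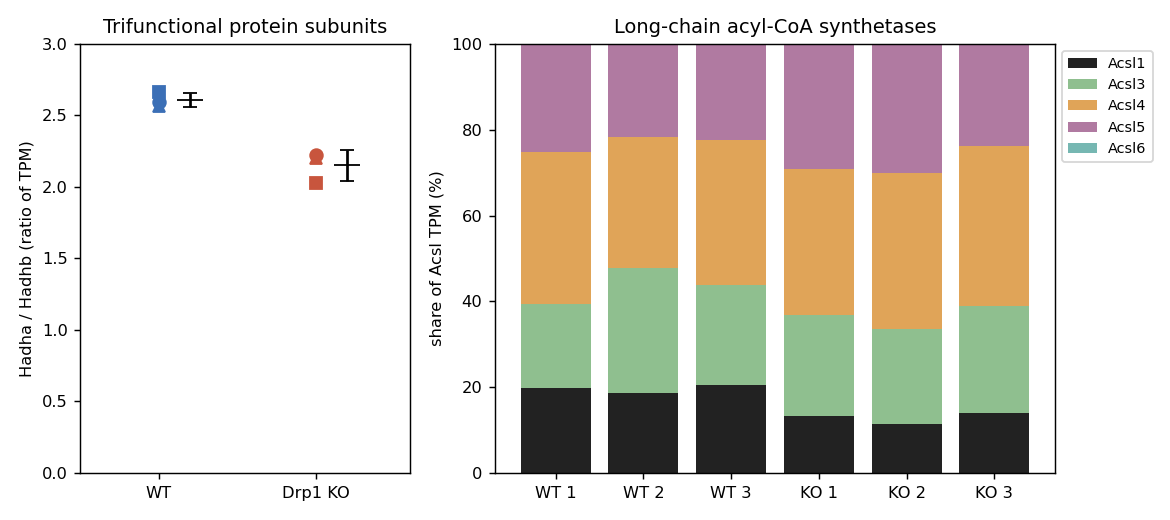
Left, the ratio of Hadha to Hadhb TPM in each library (circle, square and triangle for libraries 1, 2 and 3) with the mean and SD of each group beside the points; right, the share in percent of each long-chain acyl-CoA synthetase in the summed Acsl TPM of each library. The ratio is 2.56 to 2.66 in WT and 2.03 to 2.22 in Drp1 KO, and the Acsl1 share is 18.6% to 20.6% in WT and 11.5% to 13.9% in Drp1 KO.

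Acaa2, the mitochondrial 3-ketoacyl-CoA thiolase, is on chr18:74911948-74953492 (plus strand). It was at 28.5, 24.3 and 29.8 CPM in WT and 28.4, 24.0 and 26.0 CPM in Drp1 KO. Libraries of the same number were almost equal for numbers 1 and 2. In log2 terms the fold change was -0.08 ± 0.119 (SE) with an adjusted p of 0.840. It was -0.18 on leaving out WT library 2 and -0.01 on leaving out Drp1 KO library 2. Etfdh, the ubiquinone oxidoreductase that receives the electrons of the acyl-CoA dehydrogenases through the electron transfer flavoprotein, is on chr3:79511086-79536807 (minus strand). It was at 46.2, 46.1 and 47.9 CPM in WT and 47.2, 43.6 and 44.0 CPM in Drp1 KO. The groups overlapped, with a log2 fold change of -0.06 ± 0.0904 (SE) and an adjusted p of 0.842.

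**Figure D4:**
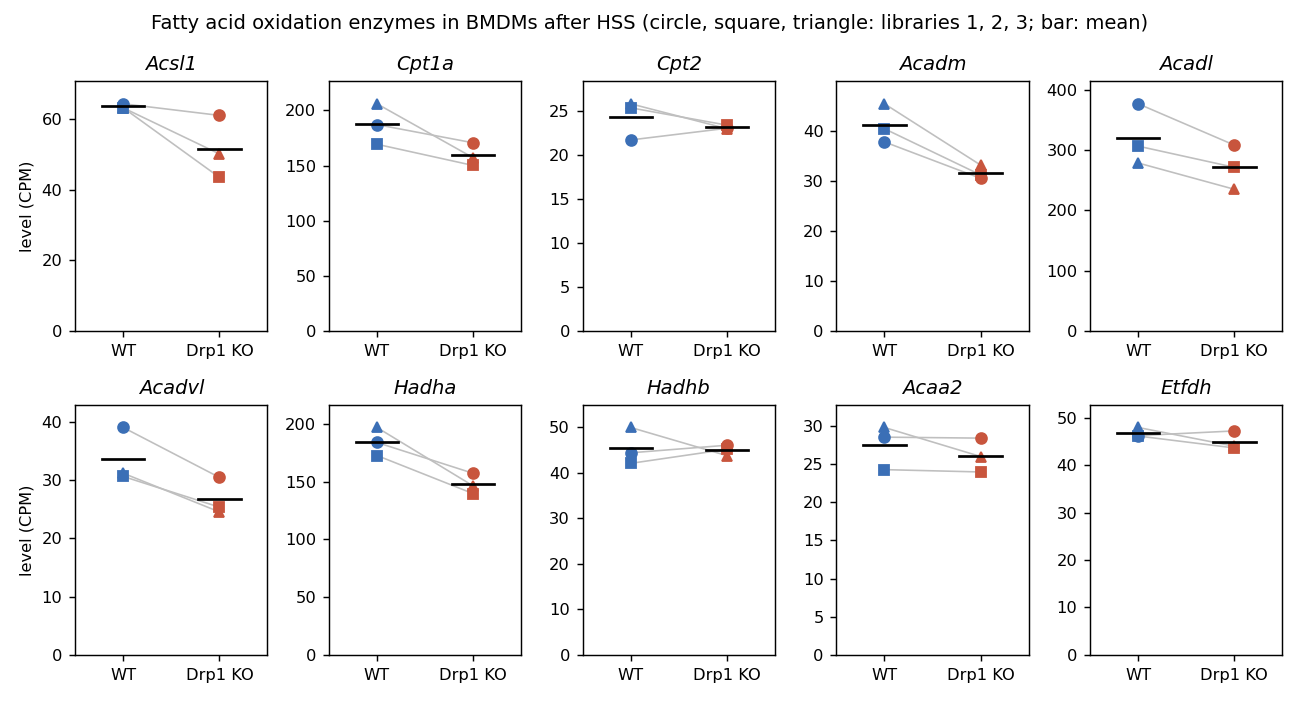
Level of each enzyme in CPM (y axis, from 0) in the 3 WT and 3 Drp1 KO libraries, with symbols for the library number, grey lines joining libraries of the same number and a bar at each group's mean. Acsl1, Acadm, Acadvl and Hadha are the 4 genes whose groups do not overlap, and in Cpt1a, Acadl and Acaa2 all 3 lines descend although the groups overlap.

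In all, 4 of the 10 members (Acsl1, Acadm, Acadvl and Hadha) had all Drp1 KO libraries below all WT libraries, where 10.3% of all genes did, and 0 had them above, where 11.7% did.

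To place the 10 enzymes in the wider pathway, 91 further genes in 7 lists were read from the same fit, of which 86 were tested. Of the 86, 5 passed an adjusted p of 0.05, beside 3.36% of all genes: Hsd17b4, Angptl4 and Acat1 fell, and Sirt1 and Elovl6 rose. With pairing 22 of the 86 passed, 14 lower and 8 higher, beside 12.0% of all genes.

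Among 12 tested genes of fatty acid activation and entry, 0 passed with edgeR, 4 had fold changes below 0, and the median log2 fold change was 0.11. At an unadjusted p under 0.05, 1 was lower and 2 were higher, and the same number in each direction passed with pairing. The smallest p-values were those of Acsl4 and Acsl5 (above) and Crat, the carnitine acetyltransferase. Crat was at 39.2, 33.9 and 42.3 CPM in WT and 31.9, 29.6 and 30.2 CPM in Drp1 KO, with no overlap, a log2 fold change of -0.33 and an adjusted p of 0.150 (0.0338 with pairing).

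Among 18 other genes of mitochondrial beta-oxidation, 0 passed with edgeR without a covariate and 11 had fold changes below 0, with a median of -0.03 on the log2 scale. At an unadjusted p under 0.05, 2 were lower and 2 higher, and with pairing 2 passed as lower and 1 as higher. Etfb, a subunit of the electron transfer flavoprotein that feeds Etfdh, was at 54.8, 41.8 and 45.3 CPM in WT and 38.1, 32.6 and 30.0 CPM in Drp1 KO. The groups did not overlap, with a log2 fold change of -0.49 ± 0.131 (SE) and an adjusted p of 0.0773. Etfb passed in 6 other settings, with pairing (0.00368), DESeq2 (0.0176), library size only (0.0326) and no filter beyond 1 count (0.018), and on leaving out Drp1 KO library 1 (0.0389) or libraries 1 of both groups (0.0156). Ech1, an isomerase for unsaturated fatty acids, had a log2 fold change of -0.34 (adjusted p = 0.121, 0.0341 with pairing). Hsd17b10, a dehydrogenase of the branched-chain and short-chain pathway, had 0.38 (adjusted p = 0.116, 0.0222 with pairing). Acot13, the most abundant of the list per length, had -0.05 (adjusted p = 0.910).

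Peroxisomes shorten very-long-chain fatty acids with enzymes of their own. Of 15 such genes tested, 1 passed, 8 had fold changes below 0 and the median log2 fold change was -0.01. The gene that passed, Hsd17b4, encodes a bifunctional enzyme of the peroxisomal pathway. It fell from 120, 105 and 113 CPM in WT to 78.9, 67.2 and 74.8 CPM in Drp1 KO, a log2 fold change of -0.61 ± 0.10 (SE) with an adjusted p of 0.00922. Leaving out WT library 3 gave an adjusted p of 0.0552, and leaving out Drp1 KO library 2 gave 0.0529. Scp2, the most abundant of the list, had a log2 fold change of -0.01 (adjusted p = 0.985), whose sign turned when WT library 1, Drp1 KO library 2 or libraries 1 of both groups were left out.

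Of 16 regulators of the PPAR, ERR and PGC-1 system tested, 1 passed and 9 had fold changes below 0 (median -0.06 on the log2 scale). Sirt1, an NAD-dependent deacetylase that acts on PGC-1 alpha, rose from 22.3, 26.5 and 27.2 CPM in WT to 34.0, 36.5 and 39.0 CPM in Drp1 KO, a log2 fold change of 0.53 ± 0.114 (SE) with an adjusted p of 0.0343. It no longer passed with length-scaled TPM (0.112), with library size only (0.0579) or when 1 of 5 libraries was left out, the exception being Drp1 KO library 1. Leaving out WT libraries 1, 2 and 3 in turn gave 0.0647, 0.142 and 0.0954, and leaving out Drp1 KO libraries 2 and 3 gave 0.135 and 0.116. Ncor1, a corepressor and the most abundant of the list, had -0.21 (adjusted p = 0.318).

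Of 10 PPAR target genes outside oxidation that were tested, 1 passed and 7 had fold changes below 0, with a median of -0.33 on the log2 scale. Angptl4, a secreted inhibitor of lipoprotein lipase, fell from 15.5, 12.4 and 16.2 CPM in WT to 9.62, 7.67 and 6.35 CPM in Drp1 KO. Its log2 fold change was -0.91 ± 0.176 (SE) with an adjusted p of 0.0222, which became 0.105 on leaving out WT library 3, and 0.103 and 0.0697 on leaving out Drp1 KO libraries 2 and 3. The fatty acid binding protein Fabp5, the most abundant of the list, had 0.09 (adjusted p = 0.832), and the sign turned on leaving out Drp1 KO library 1 or libraries 1 of both groups. Cidec was at or under 3 counts in every library.

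All 4 genes of ketone body metabolism had fold changes below 0, with a median of -0.30 on the log2 scale, and 1 passed. Acat1, the mitochondrial acetoacetyl-CoA thiolase, fell from 24.1, 27.7 and 29.8 CPM in WT to 16.4, 19.6 and 19.5 CPM in Drp1 KO. This was a log2 fold change of -0.55 ± 0.124 (SE) with an adjusted p of 0.0397. It did not pass with length-scaled TPM (0.128), with library size only (0.0564) or when 1 library other than WT library 1 was left out. Leaving out WT libraries 2 and 3 gave 0.159 and 0.179, and leaving out Drp1 KO libraries 1, 2 and 3 gave 0.0571, 0.126 and 0.0905. Oxct1, which uses ketone bodies and was the most abundant of the 4, had -0.21 (adjusted p = 0.269).

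Of 12 genes of fatty acid synthesis, 1 passed and 5 had fold changes below 0 (median 0.01 on the log2 scale). Elovl6, which elongates palmitate, rose from 12.0, 10.6 and 11.4 CPM in WT to 22.5, 21.4 and 16.0 CPM in Drp1 KO, a log2 fold change of 0.82 ± 0.148 (SE) with an adjusted p of 0.0161. Leaving out WT libraries 2 and 3 gave 0.112 and 0.0831, and leaving out Drp1 KO library 2 gave 0.0787. Scd2, the most abundant of the list, had 0.09 (adjusted p = 0.761).

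**Figure D5:**
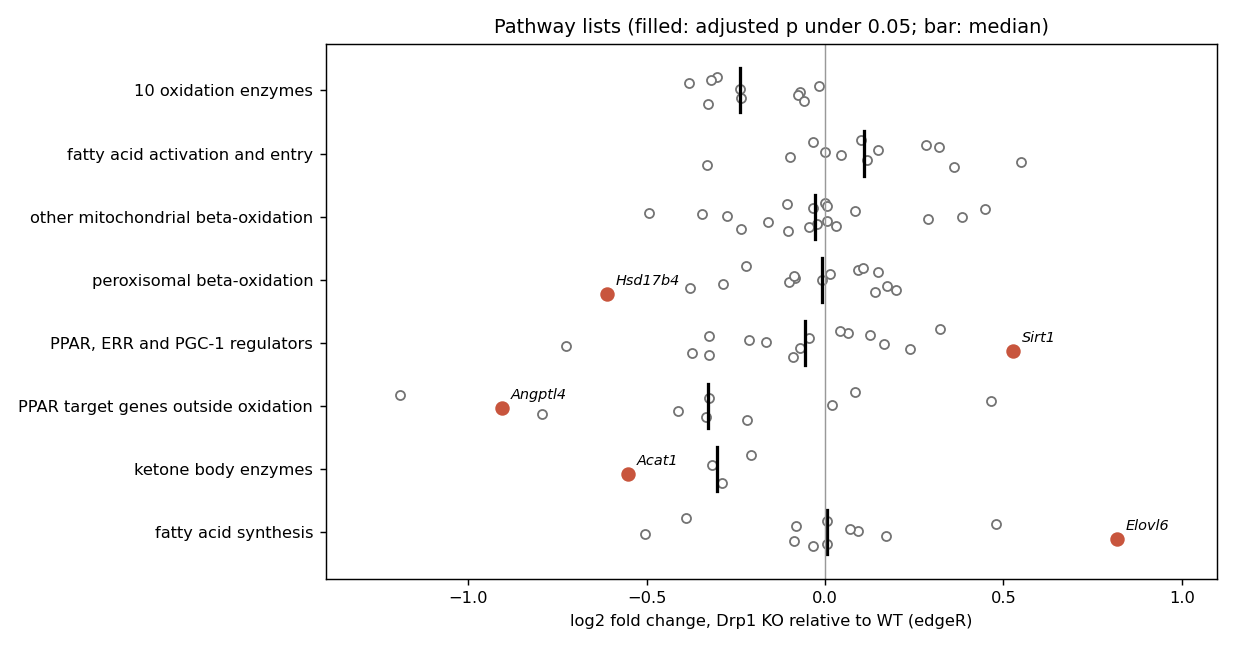
Log2 fold changes (x axis) in Drp1 KO relative to WT of the 10 enzymes and of the tested genes of the 7 lists (rows), with filled points for an adjusted p under 0.05 and a bar at each row's median. The 10 enzymes lie between -0.38 and -0.02, and the 5 filled points are Hsd17b4, Angptl4, Acat1, Sirt1 and Elovl6.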

How the data were processed

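BMDM RNA after HSS was sequenced, with 3 libraries a genotype. The authors quantified reads with kallisto 0.46.1 on Ensembl cDNA of GRCm39 and deposited 1 table per library, in which 116873 transcripts each have an estimated count and a TPM. The labels and the study's methods differ on the RNA and library kits and on the share of L929 medium. Whether kallisto's strand or bias options were used is not given in the sources used here. By identifier 99.4% of the transcripts matched the GENCODE annotation of GRCm39, and the remainder, with 0.542% to 0.575% of the counts of each library, was not used. The deposited estimated counts were summed over the transcripts of a gene and then rounded. The deposited TPM values were added per gene for levels, ratios and shares. Genotypes were compared with edgeR 4.0.16 under R 4.3.3 (TMM, genes with at least 10 counts in total, quasi-likelihood test of genotype without a covariate, Benjamini-Hochberg adjustment over 18506 genes). CPM values are per TMM-scaled library size. Each standard error was taken as the log2 fold change divided by the root of its F statistic.

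In counts simulated for this comparison on 18114 genes, with 200 given a 2-fold change, 78.5% of those 200 were found, and 9 unchanged genes were called. The members changed by at most 1.30-fold (Acadm), and recovery of changes that small was not simulated. The simulated libraries also had no tie by number. The groups share the numbers 1 to 3 in the labels. Correlations of deviations from group means were 0.539, 0.218 and 0.352 between libraries of the same number (12248 genes) and -0.481 to 0.339 between the others. The 0.339, of WT library 2 with Drp1 KO library 3, was above the 0.218 of libraries 2. Since each same-number value exceeded 0.1, libraries of a number were treated as pairs on the evidence of the data alone, and the paired fit had the number as a block. Ratios were tested by exact permutation over libraries.

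Alternatives were DESeq2 1.42.0, limma-voom (limma 3.58.1), median-of-ratios size factors, library size only, filterByExpr, no filter beyond 1 count, length-scaled TPM, the pairing, and each library left out in turn. Leaving out libraries 1 of both groups was chosen after seeing the data. The members and lists were chosen with earlier results of these data known. All 10 members were named. In each list every gene with an adjusted p under 0.05 was named, or else the 3 with the smallest p, and the gene with the highest TPM. Upstream sequences were read from the GRCm39 genome at the annotated start of each gene's canonical transcript.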

Additional observations from a re-analysis of the deposited data

How the results depend on the processing

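Over 15 other settings all 10 members had fold changes below 0 in 12, and 9 did in the rest: with length-scaled TPM (Cpt2 at 0.15), on leaving out WT library 3 and on leaving out Drp1 KO library 3. The number of members at an adjusted p under 0.05 (0) was 2 with DESeq2, 3 with the replicate block and 3 without libraries 1 of both groups, and 0 to 1 with 1 library left out. The number past the study's fold threshold with p under 0.05 (2) was 3 with DESeq2, limma-voom, median-of-ratios size factors and library size only. It was also 3 with filterByExpr, with no filter beyond 1 count and without libraries 1 of both groups. With length-scaled TPM it was 4, with the replicate block 2, and with 1 library left out 1 to 5. The members' median log2 fold change ran from -0.32 to -0.18 with 1 library left out, the lowest without Drp1 KO library 1. Over all genes, 621 passed (31.7% lower), against 1155 with DESeq2 (42.6% lower), 1065 with no filter beyond 1 count, 2212 with the replicate block (43.7% lower), 1880 without libraries 1 of both groups and 181 to 904 with 1 library left out. The difference in the Cpt1a share, 0.117 percentage points, was -0.470 on counts per kilobase and -0.166 to 0.318 with 1 library left out. With 1 library left out, the signs of near-zero log2 fold changes turned for Hadhb (-0.085 to 0.044), Acot13 (-0.13 to 0.0083), Scp2 (-0.054 to 0.034) and Fabp5 (-0.060 to 0.17), and without libraries 1 of both groups Scp2 was at 0.010 and Fabp5 at -0.022. The cause of these changes was not tested. The replicate block changed no other call that the text gives without its paired value.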
